A study of Mus musculus with 64 samples.

Results

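Transposon insertions were described in 10 genes of the Fat cadherin and Hippo pathway group, namely Fat1, Fat3, Fat4, Dchs1, Ptpn14, Nf2, Wwc1, Lats1, Yap1 and Tead1, out of 15716 genes named among the insertions kept from the deposited table. Members were taken by the gene symbol the table gives each insertion. The group was selected on measured values, because the numbers of insertions in tails and tumours were known when it was drawn up. Numbers of insertions in these genes are therefore given as a description without p-values, and where a fit over all genes called a member, the call is given with nothing read from it. In all, 256 insertions lay in the 10 genes, 106 of them in PB tumours, 77 in PB tails, 30 in SB tumours and 43 in SB tails.

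The samples were genomic DNA from diffuse large B cell lymphomas and from tail tissue, the study's control, of mice in which a PiggyBac (PB) or Sleeping Beauty (SB) transposon was mobile. The PB mice gave 30 tumours and 12 tails and the SB mice 11 of each, and every one of the 64 samples carried a different mouse name. Both transposases were constitutive knock-ins at Rosa26, so tails were mobilised tissue and not tissue without transposition. The labels give the genotypes only as IMPB and IMSB. In the study's methods the SB mice, double or triple transgenic, had 1 parent of genotype Rosa26 SB/+;Blm m3/m3 and the other from the transposon line ITP1-C or ITP2-M, also Blm m3/m3. For the genotype of the PB cohort they refer to earlier work. Mice of both cohorts shared a strain background mixed from C57BL/6, 129Sv and FVB. The tumours bear tissue labels such as LN, MES LN, MES MASS, SPLEEN, THYMUS and SI MASS. Ages are not given in the sources used here, and DNA insertions hold no expression values with which a tissue label could be checked against marker genes.

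After insertions on chromosome 14 had been left out, a sample held from 756 to 10800 insertions. Chromosome 14 was taken as the donor chromosome, from which the transposons jump. It was inferred as the autosome with the most listed insertions per Mb in both PB and SB samples. The median number of reads per insertion was 6 in PB tumours, 21 in PB tails, 13 in SB tumours and 19 in SB tails. One PB tumour stood apart with 5721832 reads, against 369482 in the next highest library. It held 9 member insertions, 6 of them in Fat3, and none in Fat1 or Ptpn14. Sample names were written in a joined or a separated form (IMPB1 or IMPB_1), with 22 and 8 PB tumours, 5 and 7 PB tails, 11 and 0 SB tumours, and 7 and 4 SB tails. What the 2 forms stand for is not given.

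The Hippo pathway is a kinase cascade that restrains tissue growth. At the cell surface the giant atypical cadherins Fat and Dachsous bind each other between neighbouring cells, and at the membrane scaffold proteins such as merlin (Nf2) and Kibra (Wwc1) help to switch on the kinases Lats1 and Lats2. Active Lats kinases phosphorylate the coactivator Yap1 and keep it in the cytoplasm, whereas unphosphorylated Yap1 enters the nucleus and drives transcription together with the DNA-binding Tead factors. The pathway is best known from epithelia, liver and other solid tissues.

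PB inserts at TTAA and SB at TA. Positions are given in mm10, and sequences are the forward strand of GRCm38, the same build. The target motif is in capitals with 13 bases on each side. Shown first are the 4 motif positions in member genes that carried an insertion in more than 1 sample, all of them PB sites. They are chr8:44980689-44980718 in intron 1 of Fat1, chr9:16313686-16313715 in intron 2 of Fat3, and chr1:189804022-189804051 and chr1:189819371-189819400 in intron 3 of Ptpn14.
Fat1, PB tails 8 and 9: agcgttctccttcTTAAacacttcttgacc
Fat3, PB tumours 7 and 10: ctggcctgcttccTTAAagagcagagcttg
Ptpn14, PB tail 2 and PB tumour 18: ggtagctgtttacTTAAtctgcgttctgaa
Ptpn14, PB tail 9 and PB tumour 17: tgctcacaggatcTTAAgaggttttggttt

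At the Fat1 site the insertions of both tails had opposite orientations, as had those of the tail and the tumour at the last Ptpn14 site. At the other 2 sites both insertions ran against the strand of the gene. Across the genome, 8.69% of insertions in PB tails and 8.98% in PB tumours lay at a motif position also used in another sample of the same transposon, against 4 of 77 and 4 of 106 in the member genes. The 4 pairs of samples shared 29, 40, 15 and 9 positions in the order listed, where the median over all 861 pairs of PB samples was 10 and the range was 0 to 95. No SB position in a member gene recurred.

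Shown next are the 6 of 256 insertions that lay within a coding exon of the RefSeq Select transcript, since these interrupt the reading frame itself. They were at chr8:45024339-45024368 (codon 2122 of Fat1), chr9:16376225-16376254 (codon 667 of Fat3), chr9:15966984-15967013 (codon 3400 of Fat3), chr1:189822577-189822604 (codon 115 of Ptpn14), chr10:7702828-7702855 (codon 576 of Lats1) and chr9:8001445-8001474 (codon 176 of Yap1).
Fat1 exon 9, PB tail 1: atacactactaccTTAAggagcatcatgac
Fat3 exon 2, PB tumour 17: gaggactgagatgTTAAtggccatggggtc
Fat3 exon 16, PB tumour 11: gtccagtttcttcTTAActttcacaagtcc
Ptpn14 exon 4, SB tumour 3: ttcctgtaacagaTAtcagtattacctg
Lats1 exon 4, SB tail 6: atgagtcagtaagTAagccctgcaaaga
Yap1 exon 2, PB tumour 24: gtcttcacttactTTAAgaagtatctttga

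The coding insertion of Fat1 had 71 reads and was the 184th most covered of its tail. That of Fat3 exon 2 had 2 reads, the smallest number in the table. Introns held 100 of 106 member insertions in PB tumours, 75 of 77 in PB tails, 28 of 30 in SB tumours and 41 of 43 in SB tails.

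Fat1 encodes a very large cadherin of 4590 residues and lies on the forward strand at chr8:44950208-45052257. It carried 26 insertions in 11 of 12 PB tails and 9 insertions in 9 of 30 PB tumours. Scaled to 1000 insertions of the sample, PB tails ranged from 0 through a median of 0.547 to 1.47, and PB tumours from 0 through a median of 0 to 0.649. The groups overlapped, but 4 tails lay above every tumour and only 1 tumour reached the tail median. The means were 0.599 ± 0.371 (SD, n = 12) in tails and 0.0715 ± 0.142 (SD, n = 30) in tumours, a ratio of 8.39.

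In SB mice Fat1 carried 10 insertions in 7 of 11 tails and 3 insertions in 3 of 11 tumours. SB tails ranged from 0 through 0.222 to 0.463 per 1000 and SB tumours from 0 through 0 to 0.610. The highest SB sample was a tumour, and the means of 0.179 ± 0.165 in tails and 0.0850 ± 0.187 in tumours (SD, n = 11 each) lay within 1 SD of each other. Within the joined names alone, Fat1 stood at 0.457 ± 0.357 (SD, n = 5) in PB tails and 0.0411 ± 0.0827 (SD, n = 22) in PB tumours. Within the separated names it stood at 0.701 ± 0.372 (SD, n = 7) and 0.155 ± 0.227 (SD, n = 8). PB tails thus had the higher mean under both name forms.

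Ptpn14 encodes a cytoplasmic tyrosine phosphatase that binds Yap1 and holds it outside the nucleus, and lies on the forward strand at chr1:189728268-189876695. It carried 22 insertions in 10 of 12 PB tails and 8 insertions in 7 of 30 PB tumours. PB tails ranged from 0 through a median of 0.423 to 1.32 per 1000, and PB tumours from 0 through 0 to 0.333. Here 7 tails lay above every tumour, and no tumour reached the tail median. The means were 0.450 ± 0.354 (SD, n = 12) and 0.0493 ± 0.104 (SD, n = 30), a ratio of 9.12.

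SB tails carried 7 Ptpn14 insertions in 5 of 11 samples and SB tumours 4 in 4 of 11. The range was 0 through 0 to 0.788 per 1000 in SB tails and 0 through 0 to 0.399 in SB tumours. In SB tails the insertions followed the form of the sample name, with 6 in 4 of 4 separated names and 1 in 1 of 7 joined names. The SB tumours all had joined names, and within joined names the mean was 0.0217 ± 0.0575 (SD, n = 7) in tails and 0.0908 ± 0.138 (SD, n = 11) in tumours. The order of SB tails and tumours was therefore turned when the separated names were left out, and the part of the name form in it was not tested.

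Fat1 and Ptpn14 insertions were both present in 9 of 12 PB tails, and every PB tail had at least 1 of the pair. Both were present in 1 of 30 PB tumours, whereas 15 tumours had neither. Both genes were hit in 3 of 11 SB tails and 1 of 11 SB tumours. Of the 10 member genes, a PB tail carried insertions in a median of 4 (range 1 to 7) and a PB tumour in a median of 2.5 (range 0 to 6).

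**Figure D1:**
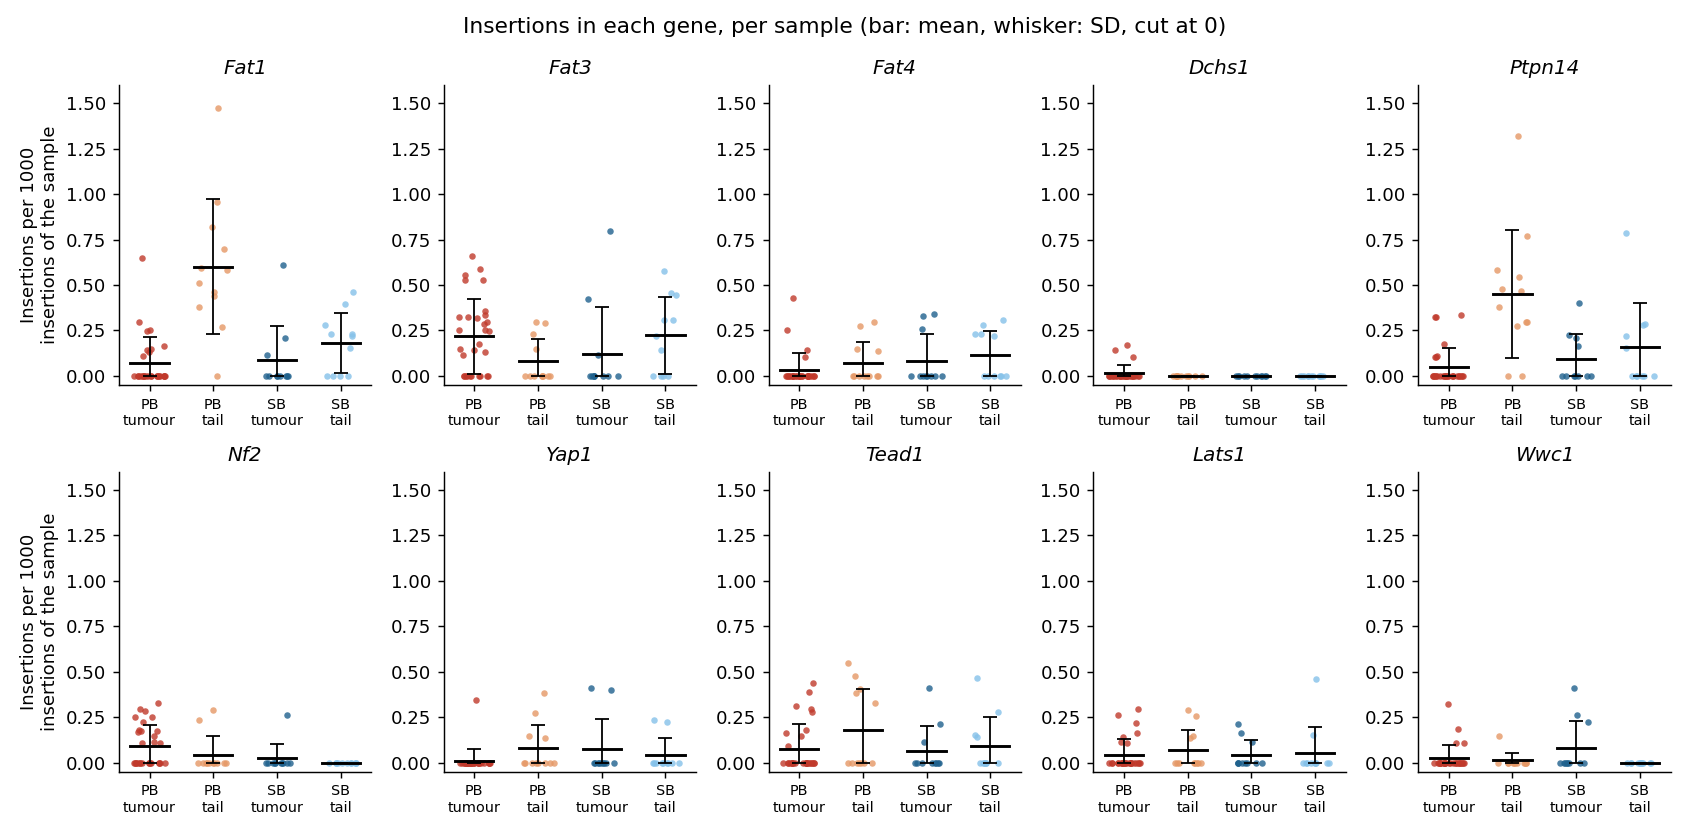
Insertions in each of the 10 genes per 1000 insertions of the sample (vertical axis), with a point for each sample, the mean as a bar and the SD as a whisker cut at 0, for tumours and tails of PB and SB mice. Fat1 and Ptpn14 reached 1.47 and 1.32 in PB tails, and no other gene exceeded 0.799 in any group.

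In the fit of edgeR's quasi-likelihood model to insertions per gene over all genes with at least 10 insertions, 6 members were fitted for PB. Of the 3305 genes fitted, 2.3% were called higher in tails and 2.15% higher in tumours. Fat1 and Ptpn14 were called higher in tails, with log2 differences of tumours over tails of -2.79 and -2.66. The other fitted members were not called and had log2 differences of 1.10 for Fat3, 0.92 for Nf2, -0.63 for Lats1 and -0.91 for Tead1, and the median over all genes fitted was 0.20. Fat4, Dchs1, Yap1 and Wwc1 had fewer than 10 PB insertions and were not fitted. These counts are the values on which the group was chosen, so nothing is read from them. When each sample was scored only for the presence of an insertion, neither Fat1 nor Ptpn14 was called, at log2 differences of -1.62 and -1.73, and Fat1 was also not called within separated names, at -2.15. Trimmed-mean scaling (TMM) moved the median of all genes to 0.40, and the calls higher in tails from 51.7% to 26.3% of all calls, with Fat1 at -2.53 and Ptpn14 at -2.40.

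For SB, 4 members were among 1124 genes fitted, of which 0.178% were called higher in tails and 0.623% higher in tumours. The log2 differences of tumours over tails were -1.19 for Fat1, -0.78 for Fat3, 0.30 for Fat4 and -0.47 for Ptpn14. None of the 4 was called by edgeR or by DESeq2. These too are counts on which the group was chosen, so nothing is read from them.

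Long genes offer more target sites, so insertions were set against the number expected from the gene's share of the TTAA or TA sites of its chromosome. In this comparison all insertions within the span of the curated RefSeq transcripts were counted. Fat1 had 26 insertions in PB tails where 2.28 were expected, a ratio of 11.4 with a 95% exact Poisson interval of 7.44 to 16.7. Ptpn14 had 22 where 1.93 were expected, a ratio of 11.4 with an interval of 7.13 to 17.2. In PB tumours the ratios were 1.32 (0.605 to 2.51) for Fat1 and 1.23 (0.530 to 2.42) for Ptpn14, beside a median of 1.21 over the 10260 genes with at least 1 expected insertion.

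In SB tails Fat1 stood at 4.14 (1.90 to 7.87) and Ptpn14 at 3.45 (1.39 to 7.11), and in SB tumours at 1.70 (0.351 to 4.98) and 2.13 (0.581 to 5.46). These Poisson intervals, here and below, cover counting error only and leave out the spread between samples. They are no test of a member, since the members were chosen on these counts. By the Wald test of the study's site-count model, 1.18% of genes were called in PB tails, 4.85% in PB tumours, 0.189% in SB tails and 0.39% in SB tumours. Of the members, Fat1 and Ptpn14 were called in PB tails and none in the other groups. These are again the counts on which the genes were chosen, so nothing is read from the calls.

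**Figure D2:**
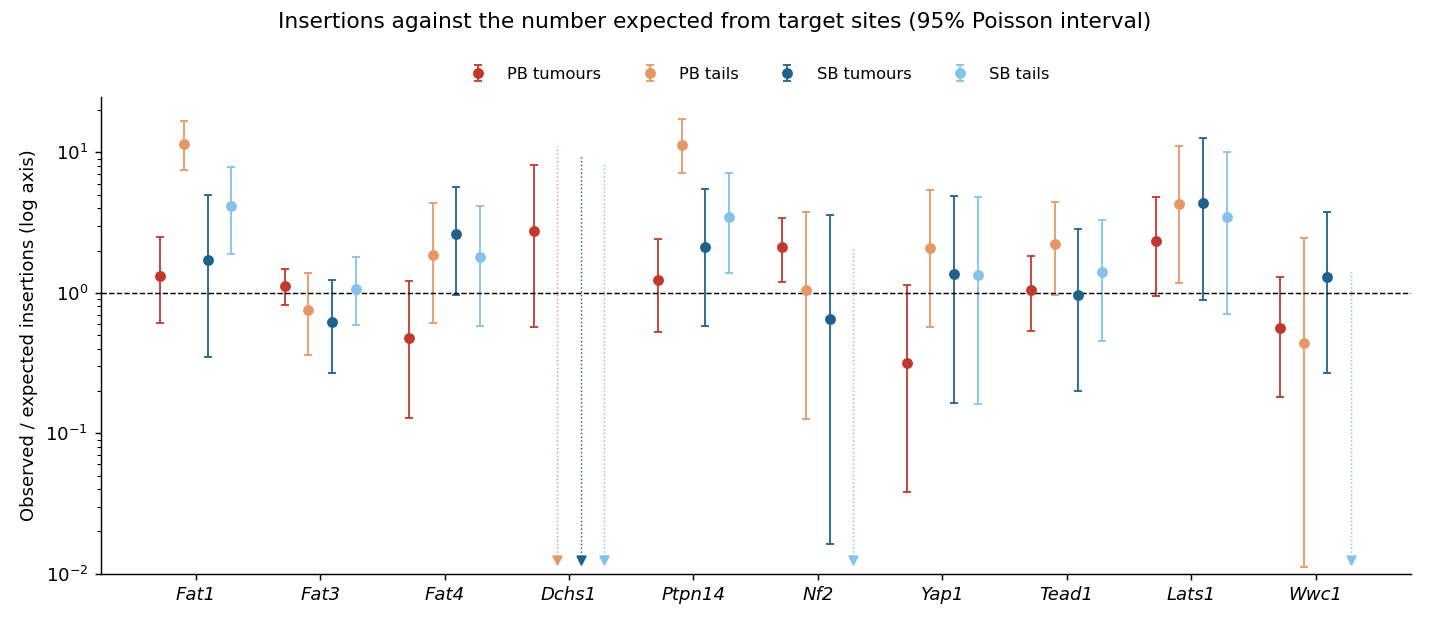
Observed over expected insertions (log axis) for each gene and group, with the 95% exact Poisson interval as whiskers, and with triangles and dotted lines up to the upper limit where no insertion was observed. Fat1 and Ptpn14 both stood at 11.4 in PB tails, and at 1.32 and 1.23 in PB tumours. The genes were chosen on these counts, and the intervals leave out the spread between samples.

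Insertions were spread over both genes. In Fat1, intron 1 holds 248 of the 667 TTAA sites and held 16 of 26 insertions in PB tails and 7 of 9 in PB tumours, and intron 2 (136 sites) held 4 and 1. By these positions 22 of the 26 tail insertions and all 9 tumour insertions lay before the midpoint of the coding sequence. The share of TTAA sites before that midpoint was not counted, so no clustering is read from these numbers. In Ptpn14, intron 1 holds 243 of 558 sites and precedes the whole coding sequence. It held 4 of 22 insertions in PB tails and 6 of 8 in PB tumours, whereas intron 3 (87 sites) held 7 and 2. The median distance from the transcript start was 83.6 kb in PB tails and 50.3 kb in PB tumours for Ptpn14, and 32.4 kb and 30.5 kb for Fat1. The difference in position was not tested.

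The annotation of Fat1 also bears on its count. Predicted transcripts extend the gene 17.1 kb upstream to position 44933100, over 103 further TTAA sites. In that stretch lay 6 insertions from 4 PB tails and 1 from a PB tumour, all listed as intergenic in the table, and 2 from SB tails, 1 of them listed as Fat1. With this longer span the mean was 0.724 ± 0.405 per 1000 (SD, n = 12) in PB tails and 0.0753 ± 0.141 (SD, n = 30) in PB tumours.

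**Figure D3:**
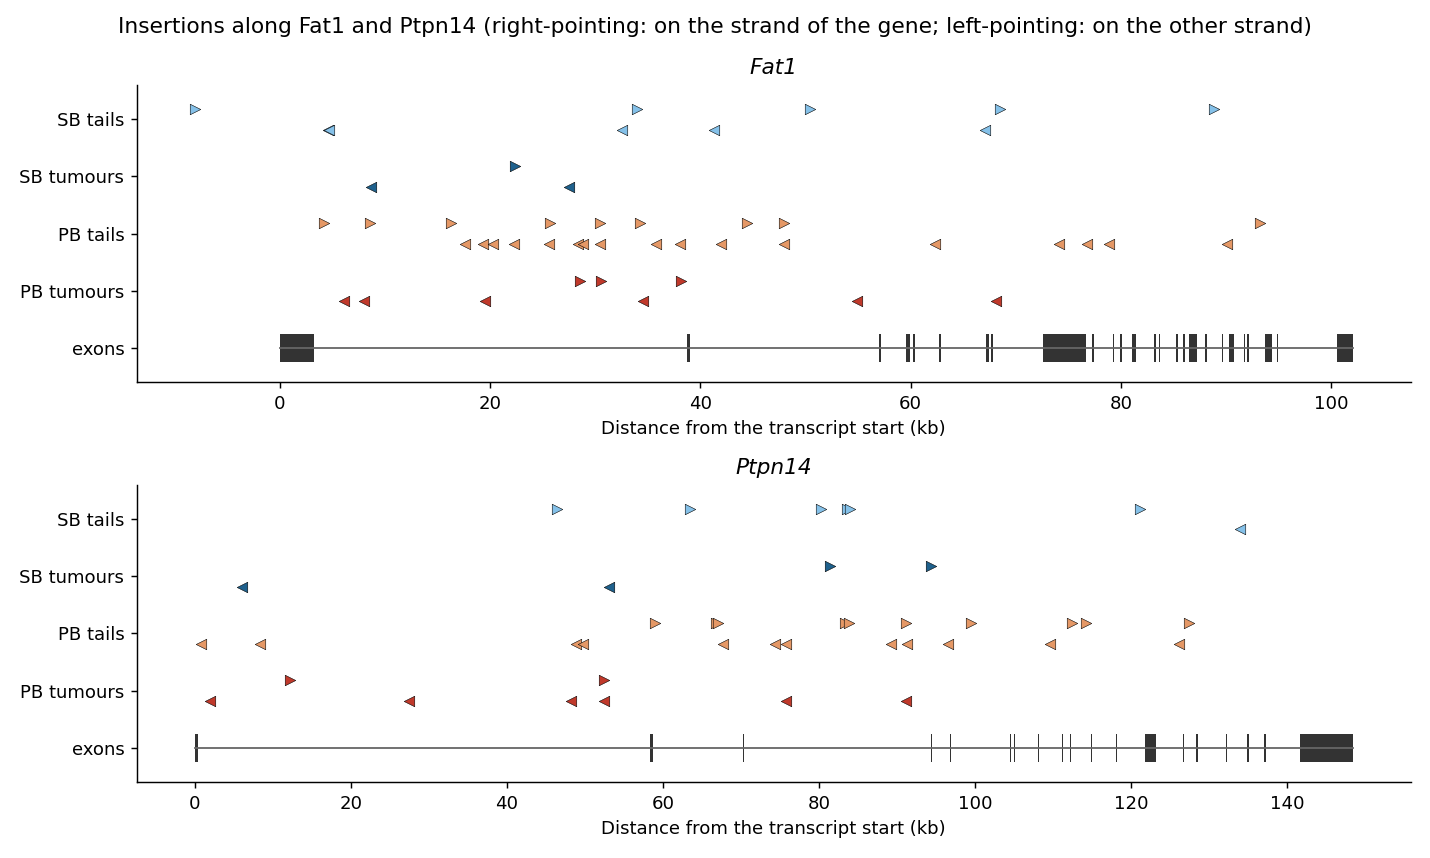
Insertions along Fat1 and Ptpn14 by distance from the transcript start in kb, in a row for each group, with triangles pointing right on the strand of the gene and left on the other strand, and with exons as dark boxes. In Fat1 most insertions lay within the first 60 kb, and in Ptpn14 6 of 8 PB tumour insertions, but 4 of 22 PB tail insertions, lay in the first intron.

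Among the other cadherins, Fat3 is best known from neurons and is the longest gene of the group, with 592 kb on the reverse strand at chr9:15910189-16502054. It carried 40 insertions in 20 of 30 PB tumours and 5 insertions in 4 of 12 PB tails. PB tumours ranged from 0 through a median of 0.213 to 0.659 per 1000 and PB tails from 0 through 0 to 0.298. In this gene 10 tumours lay above every tail, an order opposite to that of Fat1. The means were 0.219 ± 0.205 (SD, n = 30) and 0.0807 ± 0.125 (SD, n = 12).

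The table gives the name Fat3 only downstream of the first intron, and 20 insertions inside that intron, 9 of them in PB tumours and 5 in PB tails, are listed as intergenic. Over the whole span the means came to 0.273 ± 0.236 in PB tumours and 0.215 ± 0.203 in PB tails (SD, n = 30 and 12), a smaller difference. Against its 3438 TTAA sites, Fat3 had 49 insertions in PB tumours where 44.0 were expected, a ratio of 1.11 (0.824 to 1.47), and 10 in PB tails where 13.3 were expected, a ratio of 0.752 (0.361 to 1.38). Both intervals held 1. By organ, insertions listed as Fat3 were present in 8 of 9 PB tumours labelled MES MASS and 4 of 5 labelled LN. They were present in 4 of 6 labelled SPLEEN and 2 of 6 labelled MES LN. Pooled over the tumours of each label, the rates in this order were 0.355, 0.187, 0.339 and 0.130 per 1000, and the organs were not tested. The CERV LN and LN THROAT tumours, 1 of each, were hit, and the CERV MASS and THOR LN tumours, 1 of each, were not. In SB mice Fat3 was hit in 7 of 11 tails (11 insertions) and 3 of 11 tumours (5 insertions), with medians of 0.219 and 0 per 1000.

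Fat4, at chr3:38886940-39011985 on the forward strand, is the cadherin that pairs with Dachsous in mammals. It carried 5 insertions in 4 PB tails, 4 in 4 PB tumours, 5 in 5 SB tails and 6 in 3 SB tumours. All 4 intervals of observed over expected held 1, from 0.474 (0.129 to 1.21) in PB tumours to 2.62 (0.960 to 5.70) in SB tumours. Dchs1, the Dachsous ligand of Fat4, lies on the reverse strand at chr7:105752989-105787550. It is a short target with 103 TTAA sites and carried 3 insertions, each in another PB tumour. It had none in the other groups, where 0.334, 0.384 and 0.441 insertions were expected in PB tails, SB tumours and SB tails, so that an absence was not detectable at this depth.

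Nf2, which encodes the tumour suppressor merlin, lies on the reverse strand at chr11:4765845-4849544. It carried 16 insertions in 14 of 30 PB tumours and 2 insertions in 2 of 12 PB tails. PB tumours ranged from 0 through 0 to 0.326 per 1000 and PB tails from 0 through 0 to 0.291, so that the groups overlapped almost wholly. Observed over expected was 2.10 (1.20 to 3.42) in PB tumours and 1.04 (0.126 to 3.76) in PB tails, with overlapping intervals. In PB tumours the median over genes with at least 1 expected insertion was 1.21. The Wald test of the site-count model called Nf2 in neither group. In PB tumours 11 of the 16 lay in intron 1, which holds 177 of 467 TTAA sites, and 15 lay before the midpoint of the coding sequence. For Nf2, too, the share of sites before the midpoint was not counted. SB tumours had 1 insertion, and SB tails had 0 where 1.71 were expected, which allows a rate of up to 0.0591 per 1000 (3 counts over the group).

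Wwc1, the scaffold known as Kibra, lies on the reverse strand at chr11:35838399-35980527. It carried 5 insertions in 4 PB tumours, 1 in a PB tail, 3 in 3 SB tumours and 0 in SB tails. Observed over expected was 0.557 (0.181 to 1.30) in PB tumours and 1.29 (0.267 to 3.78) in SB tumours, and the upper limit in SB tails was 1.44. Lats1, the kinase that phosphorylates Yap1, lies on the forward strand at chr10:7681209-7716461. It carried 7 insertions in 7 PB tumours, 4 in 4 PB tails, 3 in 3 SB tumours and 3 in 2 SB tails. It is a short gene of 35.3 kb with 247 TTAA sites, and its observed number was above the expected number in all 4 groups, at 2.35 (0.946 to 4.85), 4.31 (1.18 to 11.0), 4.33 (0.893 to 12.7) and 3.45 (0.712 to 10.1). In the same order of groups, the medians over genes with at least 1 expected insertion were 1.21, 1.12, 1.01 and 1.02. The numbers of Lats1 insertions were small, and the intervals are no test.

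Yap1, the coactivator at the end of the cascade, lies on the reverse strand at chr9:7931999-8004596. It carried 4 insertions in 4 PB tails and 2 insertions in 1 PB tumour, with 2 in 2 SB tails and 2 in 2 SB tumours. Observed over expected was 0.316 (0.0383 to 1.14) in PB tumours and 2.09 (0.570 to 5.36) in PB tails, and both intervals held 1. Tead1, the DNA-binding partner of Yap1, lies on the forward strand at chr7:112679356-112906784. It carried 12 insertions in 9 PB tumours and 8 in 5 PB tails. PB tumours ranged from 0 through 0 to 0.440 per 1000 and PB tails from 0 through 0 to 0.546, with 2 tails above every tumour. Against 1100 TTAA sites the ratios were 1.04 (0.537 to 1.81) and 2.24 (0.968 to 4.42). SB tails had 5 Tead1 insertions and SB tumours 3, with means of 0.0942 ± 0.155 and 0.0669 ± 0.133 per 1000 (SD, n = 11 each). With insertions of at least 10 reads the order of these means turned, to 0.0688 and 0.0758.

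Orientation did not enter the choice of the genes and was tested over samples. The table gives the strand of each insertion, and how that strand relates to the cargo of the transposon is not given. Over all insertions in genes, the share on the strand of the gene was 49.2% in PB tails, 48.4% in PB tumours, 47.5% in SB tails and 45.9% in SB tumours. A two-sided sign-flip permutation test, exact for all pairs, was run for the 10 pairs of member and group with insertions in at least 6 samples, and no pair passed after Benjamini-Hochberg adjustment over the 10. None had an unadjusted p below 0.05 either, and the smallest exact permutation p that Fat3 in SB tails allowed was 0.0625. Only 4 of the 10 pairs had enough samples to pass the adjustment on their own. For Tead1 in PB tumours the smallest exact permutation p was 0.00781, too large for that.

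The most one-sided of the pairs tested was Tead1 in PB tumours, with 10 of 12 insertions against the strand of the gene (same-strand share 16.7%, 95% Clopper-Pearson interval 2.09 to 48.4). That interval counts insertions as independent, although some came from the same tumour. More insertions lay against the gene than along it in 7 of 9 tumours (exact permutation p = 0.0625, adjusted p = 0.496). One tumour, PB tumour 23, held 3 of the 12, and without it 7 of 9 insertions ran against the gene (exact permutation p = 0.125, adjusted p = 0.688). Fat3 in PB tumours had 25 of 40 insertions against the gene (exact permutation p = 0.0992, adjusted p = 0.496).

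For Fat1 in PB tails the split was 9 with and 17 against the gene (exact permutation p = 0.219, adjusted p = 0.729), and for Ptpn14 in PB tails 10 and 12 (exact permutation p = 0.828, adjusted p = 1). Ptpn14 in SB tails had 6 of 7 insertions on the strand of the gene, in too few samples for the test.

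**Figure D4:**
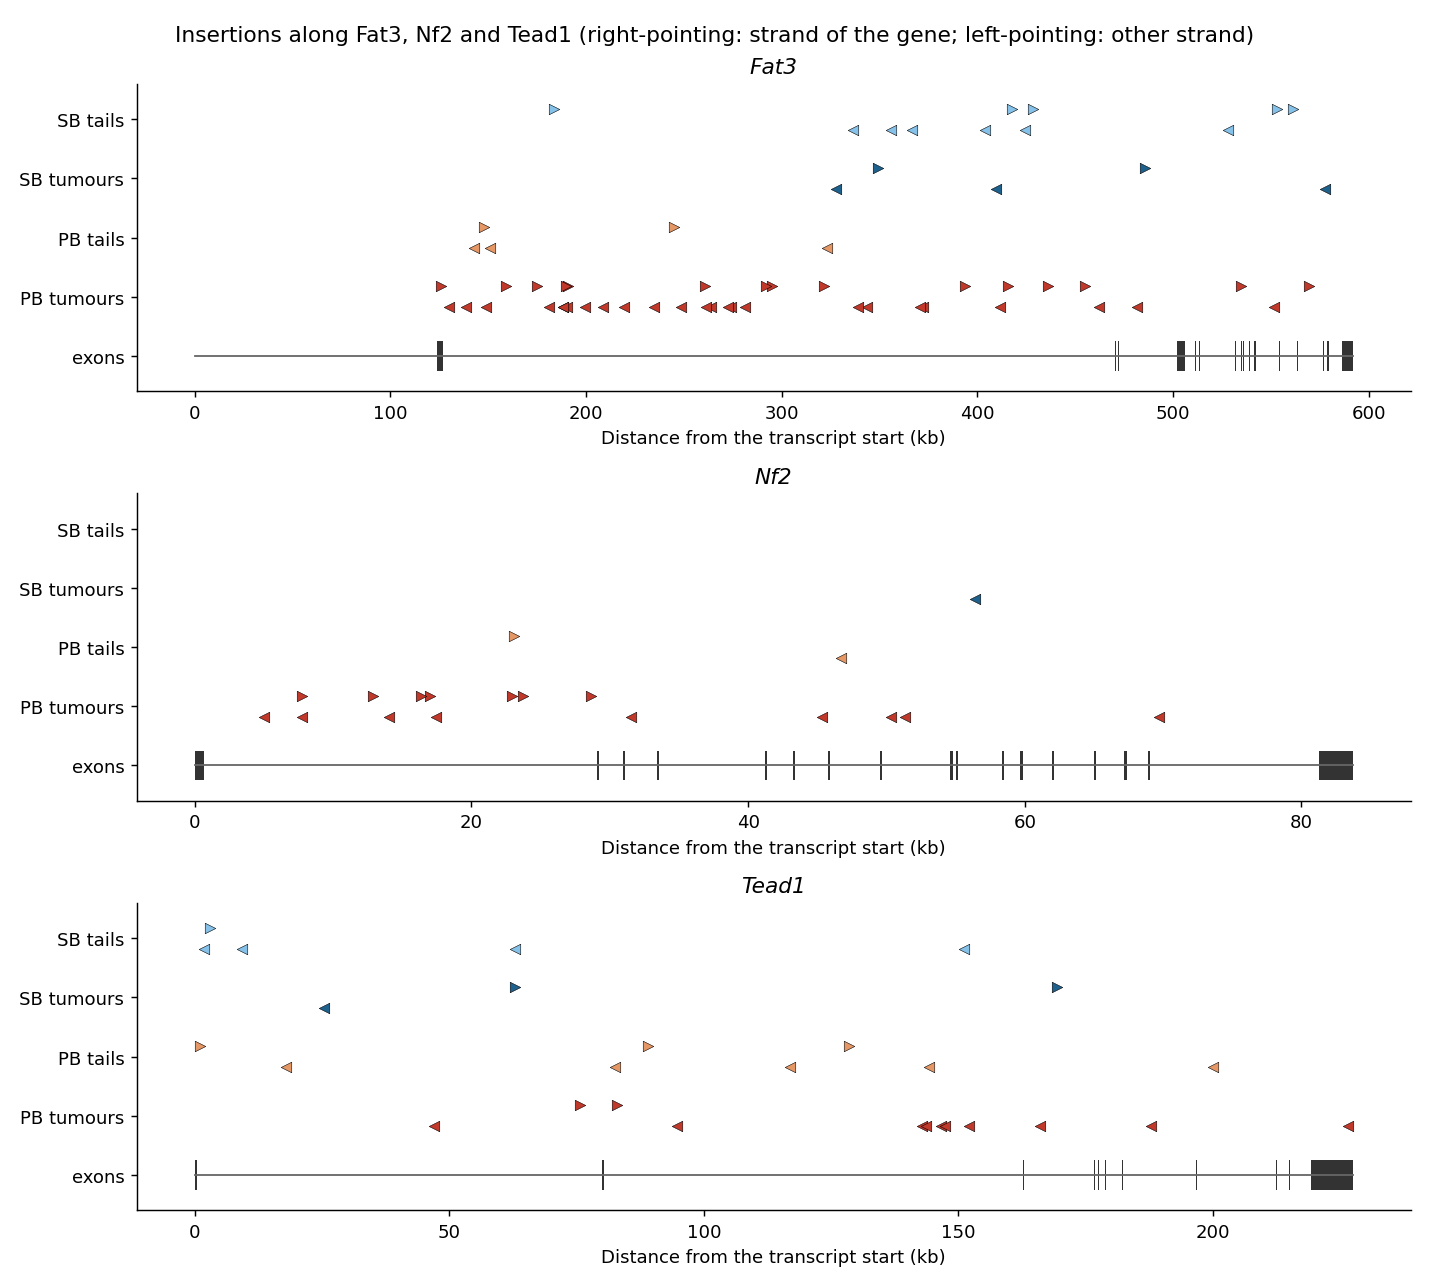
Insertions along Fat3, Nf2 and Tead1 by distance from the transcript start in kb, in a row for each group, with triangles pointing right on the strand of the gene and left on the other strand, and with exons as dark boxes. In Nf2 11 of 16 PB tumour insertions lay in the first intron, and in Tead1 10 of 12 PB tumour insertions ran against the gene.

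The reads of an insertion rise with the amount of DNA that carries it. Each insertion was ranked among all insertions of its own sample, from 0 for the fewest reads to 100 for the most, and the mean rank per sample was compared between tumours and tails. In PB mice Fat1 averaged 48.7 ± 30.4 in 9 tumours and 51.1 ± 19.6 in 11 tails (mean ± SD, exact permutation p = 0.830, adjusted p = 0.913). Ptpn14 averaged 48.3 ± 32.2 in 7 tumours and 41.6 ± 27.1 in 10 tails (exact permutation p = 0.642, adjusted p = 0.882). The largest difference was for Fat4 in PB mice, at 69.6 ± 20.05 in 4 tumours and 34.2 ± 24.3 in 4 tails (exact permutation p = 0.0571, adjusted p = 0.476). None of the 11 comparisons passed after adjustment, and none had an unadjusted p below 0.05. With 3 SB tumours and 4 SB tails, the comparison for Tead1 could not go below p = 0.0571 in this exact permutation test. Only 4 of the 11 comparisons had enough samples to pass the adjustment on their own, and Fat4 in PB mice, with a smallest exact permutation p of 0.0286, was not among them.

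The most covered member insertions were compared with all insertions of the same groups. Of the 256, 0 were among the 10 most covered of their sample, a rank held by 0.193% to 0.254% of all insertions in the 4 groups. Among the 100 most covered were 2 of 77 member insertions in PB tails (2.60%) and 1 of 43 in SB tails (2.33%), beside 2.59% and 2.30% of all insertions in these groups. PB tumours had 0 of 106 and SB tumours 0 of 30, beside 1.93% and 2.59%. The member genes were thus close to the background in tails, and the numbers in tumours are too small to tell a difference. Ptpn14 in PB tail 10 had 166 reads and ranked 29th, at chr1:189840691-189840720 in intron 10. Tead1 in PB tail 9 had 153 reads and ranked 47th, at chr7:112796312-112796341 in intron 2. Fat3 in SB tail 5 had 53 reads and ranked 81st, at chr9:16135199-16135226 in intron 3.
Ptpn14 intron 10, PB tail 10: gagggagagaagtTTAAgtgcagtcgccta
Tead1 intron 2, PB tail 9: ttttcccaggaccTTAAggttactccacta
Fat3 intron 3, SB tail 5: atatgagggcatcTAtaaattgggctct

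Of the 9 Fat1 insertions in PB tumours 3 had at least 10 reads, and of the 26 in PB tails 19. For Ptpn14 the numbers were 2 of 8 and 12 of 22. Over all insertions the share with at least 10 reads was 36.2% in PB tumours and 71.4% in PB tails, so that tumours and tails differed in read depth per insertion as a whole. With insertions of at least 10 reads alone, Fat1 stood at 0.593 ± 0.479 per 1000 in PB tails and 0.0585 ± 0.188 in PB tumours, and Ptpn14 at 0.322 ± 0.311 and 0.0526 ± 0.211 (SD, n = 12 and 30).

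**Figure D5:**
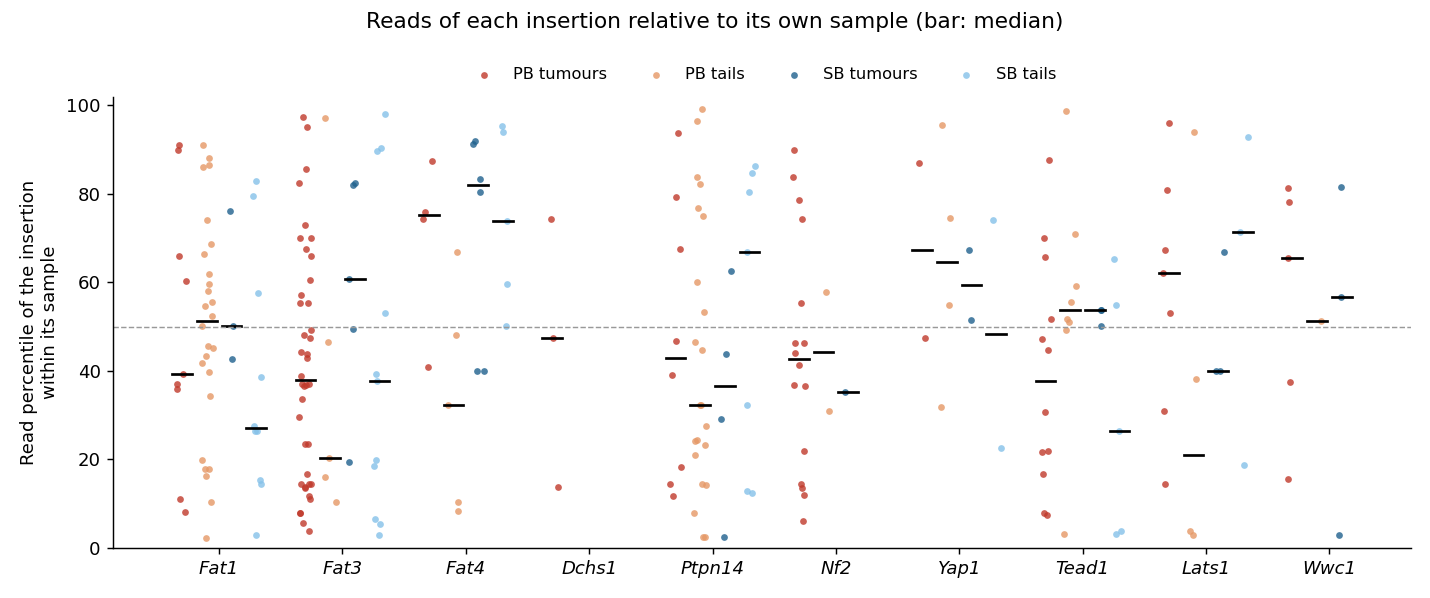
Percentile of the reads of each insertion among all insertions of its own sample (vertical axis), for each gene and group, with a point for each insertion, the median as a bar and a dashed line at 50. Median percentiles over all members were 44.2 in PB tumours, 46.5 in PB tails, 52.6 in SB tumours and 39.3 in SB tails.

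A wider list of 65 Hippo pathway genes was counted in the same fits, 54 of which had an insertion among those kept. Genes on chromosome 14 or a sex chromosome could have none, as these chromosomes were left out. A listed gene on one of these chromosomes was therefore not shown to be unhit. For listed genes on other chromosomes, an absence of insertions was not tested. Of the 26 fitted for PB, 1 was called higher in tails and 0 higher in tumours, beside 2.3% and 2.15% of all genes, and 3 had an unadjusted p below 0.05. The median log2 difference of tumours over tails in the list was 0.03, beside 0.20 over all genes. Of the 8 fitted for SB, 0 were called by edgeR or DESeq2, and 0 had an unadjusted p below 0.05. The list was drawn up with earlier results of these data known, so nothing is read from these numbers.

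The gene called was Frmd6, a FERM-domain protein related to the fly protein Expanded. It ranged from 0 through 0.379 to 1.02 per 1000 in PB tails and from 0 through 0 to 0.556 in PB tumours, with 4 tails above every tumour. It was hit in 10 of 12 tails and 10 of 30 tumours, and its log2 difference of tumours over tails was -2.14. The call was lost within joined names (log2 difference -1.21) and with presence alone (log2 difference -1.39). The genes of the list with the most insertions over all samples were the polarity gene Pard3 with 96, the kinase gene Stk3 (Mst2), which activates Lats kinases, with 62, and the scaffold gene Dlg1 with 59. None of these 3 was called, and their log2 differences of PB tumours over PB tails were -1.24, 0.22 and 0.97.

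The genes most like Fat1 in insertions per 1000 over the 64 samples, among 1242 genes of other chromosomes with at least 30 insertions, were Notch1 (Spearman's rho 0.66), Svil (0.51) and Gm14064 (0.42). For Ptpn14, among 1174 genes, they were Sntb1 (0.46), Erc1 (0.46) and Notch1 (0.45). Fat1 and Ptpn14 themselves stood at 0.24. These are descriptions, as all values share the depth and the group of a sample.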

How the data were processed

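Insertion sites were sequenced from transposon-genome junctions of 64 DNA samples. The deposited table gives, for each insertion, position, strand, gene symbol and read count, and the authors' counts are raw, with a minimum of 2 reads. The build is mm10 per the labels, and the aligner and caller are not given in the sources used here. One further column of per-sample values (reads scaled to the maximum of the sample) was not used. Positions were moved to the nearest TTAA or TA within 5 bp and counted once per sample. The 2 of 258 member lines without such a motif (Fat3 in a PB tail, Ptpn14 in an SB tumour) were left out. Chromosome 14 and the sex chromosomes were also left out. Replicate numbers follow sample order and pair no samples, and p-values measure only the spread between the samples.

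Genes with at least 10 insertions were fitted separately for PB and SB with edgeR 4.0.16 in R 4.3.3 (total insertions as library size, Benjamini-Hochberg threshold 0.05). In simulated data with 200 genes changed 4-fold, the fit called 60 of them for PB and 77 for SB. Most changes of that size were thus missed, so a gene not called may still differ. Expected numbers and the Wald test with Bonferroni adjustment (at least 3 samples and 5% of samples hit) follow the study's site-count model. The sign-flip permutation test was written with numpy 2.4.6, and the Poisson and Clopper-Pearson intervals used scipy 1.17.1. Alternatives were DESeq2 1.42.0, TMM, no filter, presence alone, at least 10 reads, RefSeq gene spans, name forms, an exact Poisson test, the highest read rank and, added after seeing the data, leaving out the PB tumour with the most reads or with the most Tead1 insertions. The text names the 10 members, the genes of the wider list that were called or had the most insertions (3), and the 3 genes most like Fat1 and Ptpn14. The members and lists were chosen with earlier results of these data known. The 3 most covered insertions and those in coding exons were picked after their values were seen. Transcripts are RefSeq Select.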

Additional observations from a re-analysis of the deposited data

How the results depend on the processing

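The number of genes called between PB tumours and PB tails was 147 (76 higher in tails), with 110 for insertions of at least 10 reads, 171 with TMM and 162 with RefSeq gene spans. It fell to 86 with DESeq2, 71 without a filter, 33 within joined names, 28 within separated names and 1 with presence alone. For SB it was 9, with 2 under DESeq2 and 0 with presence alone, where edgeR gave 8 unadjusted p below 0.05. Genes called against expected numbers went from 1094 to 632 with an exact Poisson test and to 468 with at least 10 reads in PB tumours, and with the exact Poisson test from 267 to 81 in PB tails, 93 to 32 in SB tumours and 45 to 13 in SB tails. No orientation or read rank comparison passed under any alternative run. The causes were not tested. Fat1 and Ptpn14 kept higher means in PB tails than in PB tumours under all alternatives run for the rate, and no fitted difference of a member changed sign. The order of tails and tumours turned for 3 member means, none of a called difference, namely Dchs1 in PB with the whole gene span (1 further PB tail insertion), Ptpn14 in SB within joined names (-0.0691 per 1000, tails minus tumours) and Tead1 in SB with at least 10 reads (-0.00702). SB tumours had no separated names, so that comparison was not made. Many members had fewer than 10 insertions in a group, which limits what could be seen. No paired analysis was possible because the 64 samples came from mice of 64 different names and replicate numbers only follow sample order.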
